A study of Mus musculus with 18 samples.

Results

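The change in footpad skin of FoxA1 knockout mice between postnatal day 10 (P10) and postnatal day 14 (P14) was measured on 6 of the 18 arrays of the series, 3 from knockout animals at P10 and 3 from knockout animals at P14, selected by their titles. The probes compared were those for transcripts whose skin signal stood well above background on at least 3 of these 6 arrays, which gave 24779 of 42006 probes, and 24777 of them could be tested. The tissue was the hairless skin of the fore footpad of C57BL/6 mice. The labels give the sex of every group as mixed and the modification as a gene knockout, and which cells lost the gene is not given in the sources used here. The wild-type arrays used for comparison came from littermates of the same strain, tissue and ages, with 3 arrays at each age, and the arrays of postnatal day 31 (P31) entered the fit for the estimate of spread. Each array is said to be 1 animal, called an embryo in the design text although the ages are postnatal. Skin RNA was labelled with Cy3 and hybridized together with a Cy5-labelled reference that was the same on all arrays, made from pooled cell line RNA and RNA of embryonic stem cells.

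FoxA1 is a forkhead transcription factor that opens closed chromatin in several epithelia, and the title of the series ties it to sweat secretion through Best2, an ion channel of the bestrophin family, and Nkcc1, a sodium, potassium and chloride cotransporter. The footpads are the main site of eccrine sweat glands in the mouse. The glands grow into the dermis as ducts and form their secretory coils after birth, in the same weeks in which the epidermis thickens, the dermal matrix matures and the fat below the skin fills. The scanner files carry a gene name for 0 of the 42006 probes, so most transcripts are given here by the identifier and the 60 bases of their probe. The levels of Foxa1, Best2 and Nkcc1 in these arrays, and those of the markers of sweat gland, keratinocytes, muscle, fat and other cells, were not analysed here. The identity of the tissue was therefore not checked against markers.

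The probes with the largest changes are printed 5′ to 3′ as the array carries them, because no gene name stands for them. The first pair had the largest fitted rises, the second pair the largest fitted falls, and the last pair was above background at P10 and not at P14. Capitals mark the letters AATAAA, the common signal for polyadenylation.
Z00026161-1: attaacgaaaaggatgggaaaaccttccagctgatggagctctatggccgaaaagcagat
Z00031175-1: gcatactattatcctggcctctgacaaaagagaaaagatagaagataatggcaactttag
Z00034035-1: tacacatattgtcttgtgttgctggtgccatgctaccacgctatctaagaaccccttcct
Z00022471-1: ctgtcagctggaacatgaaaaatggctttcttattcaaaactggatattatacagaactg
Z00075665-1: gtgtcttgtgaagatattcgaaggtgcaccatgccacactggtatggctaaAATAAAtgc
Z00061922-1: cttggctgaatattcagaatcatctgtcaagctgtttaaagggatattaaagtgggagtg

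Values are log2 ratios of skin over reference, and a difference between ages on this scale is a log2 fold change. Before any comparison, the 6 arrays correlated with each other across probes at 0.983 to 0.991 within P10, 0.982 to 0.987 within P14 and 0.950 to 0.975 between the ages. The first principal component held 63.0% of their variance and parted the ages. P10 replicates 1 and 2 had scores of -31.9 and -32.2 on it, P10 replicate 3 had -18.2, and the P14 arrays had 35.1, 22.4 and 24.7. P10 replicate 3 thus lay between the other P10 arrays and the P14 arrays. It was hybridized on another slide than replicates 1 and 2 (slide 2 against slide 1), and all 3 P14 arrays were on slide 3. No slide held arrays of both ages, and the effects of slide and age cannot be told apart. The skin signal was somewhat dimmer at P14, with 56.0% to 58.3% of probes well above background against 59.1% to 62.7% at P10, and 0 spots were saturated in it.

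Over all tested probes, the comparison asked which transcripts of knockout skin changed between these ages. By limma, 1354 of 24777 probes were called (5.46%), that is, they had an adjusted p under 0.05 and a fold over 1.5. Of these, 512 were higher at P14 (2.07% of those tested) and 842 were lower (3.4%). The probes that rose had a median log2 change of 0.75, from 0.59 to 2.35, and those that fell had a median of -0.77, from -0.59 to -3.26, whereas the median over all tested probes was 5.8e-04. Falls made up 62.2% of all called probes. Over 2-fold, 170 probes fell and 100 rose, and over 4-fold, 17 fell and 2 rose. All 3 arrays of one age lay beyond all 3 of the other for 508 of the 512 higher and 837 of the 842 lower probes, against 46.7% of all tested probes. At an unadjusted p under 0.05 there were 6584 probes (26.6%). With the skin channel alone, the split of the calls turned to 622 higher and 507 lower, and 341 of the 512 and 331 of the 842 probes were called in the same direction in it. All 512 and all 842 kept their sign there. The count also rested on single arrays and was 600 without P10 replicate 1, 645 without P10 replicate 2 and 670 without P14 replicate 1.

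**Figure D1:**
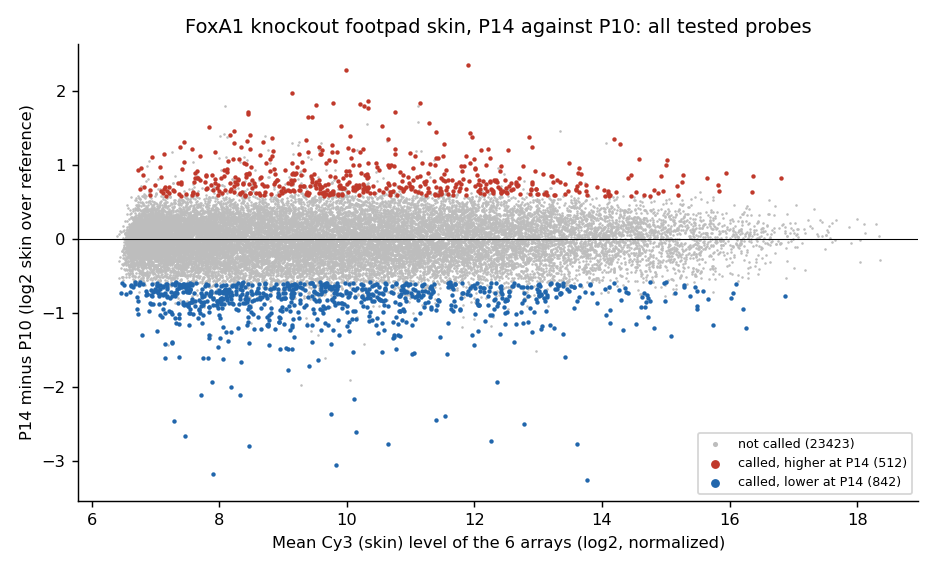
Change from P10 to P14 in knockout skin (log2 skin over reference, vertical axis) against the mean skin signal of the 6 arrays (log2, horizontal axis), 1 point per tested probe. The 512 probes called higher (red) and 842 called lower (blue) are spread over the range of brightness, and 17 of the blue points have a fitted fall of over 4-fold.

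The fitted changes of the 17 probes that fell over 4-fold ran from -2.11 to -3.26, and all 17 were lower with the skin channel alone. Among them were Z00075665-1 and Z00061922-1, above background on 0 of 3 P14 arrays, which entered the tested set only through P10. No p value is therefore given for the 17 as a set. For probes not well above background at P14, the 4-fold limit refers to the fitted ratio only. All 17 were well above background on the 3 P10 arrays and 13 on the 3 P14 arrays. Probe Z00034035-1 had log2 ratios of 1.74, 1.61 and 0.36 on the P10 arrays and of -2.19, -1.91 and -1.97 on the P14 arrays. The P14 arrays lay close together and far below all P10 arrays, and P10 replicate 3 was the lowest of the P10 arrays. The fall was 3.26 on the log2 scale (SE 0.312, adjusted p = 1.9e-05), or 9.58-fold. At P31 the knockout arrays were lower again, at -4.27, -4.44 and -4.89.

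Probe Z00022471-1 had log2 ratios of 4.15, 4.19 and 2.56 at P10 and of 0.31, 0.42 and 0.62 at P14. It went from a level well above that of the reference pool on every P10 array to one well above background on 1 of the 3 P14 arrays and on 0 of the 3 knockout arrays of P31. Its fitted change was -3.18 (SE 0.299, adjusted p = 1.8e-05), and no fold is given because most P14 arrays were not well above background. The Cy5 reference signal of Z00022471-1 was higher by 0.72 on the log2 scale on the P14 arrays, and its part in the ratio was not tested. Probe Z00039540-1, which had the largest fall of the wild type, went in the knockout from between 2.34 and 3.34 to between -0.20 and 0.00 (change -3.06, SE 0.246, adjusted p = 4.5e-06). It was well above background on all arrays of both ages. In this probe the Cy5 reference signal was lower by 1.06 on the log2 scale on the P14 arrays too, and the part of this in the ratio was not tested.

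In 16 of the 17, P10 replicate 3 had the lowest ratio of the 3 P10 arrays. Measured from that array alone the falls ran from -0.75 to -2.67. All 17 were higher on average in knockout than in wild-type skin at P10, by 0.16 to 1.63. In 13 of the 17, however, P10 replicate 3 lay within the range of the wild-type P10 arrays or below it. Replicate 3 shared its slide with the wild-type P10 arrays, and replicates 1 and 2 were on another slide. The part of the slide in this difference was not tested. At P14 the genotypes differed by -0.70 to 0.11. In 14 of the 17 the knockout mean fell further by P31. All 17 were called lower in the wild type as well, with changes from -1.24 to -2.31, and all 17 changed less there than in the knockout. The 17 were chosen for their fall in the knockout, which favours a larger change there, and these comparisons with the wild type are a description. The difference of the changes passed the test for 0 of them.

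The 2 probes that rose over 4-fold rest on an uneven P10 group. Probe Z00026161-1 had log2 ratios of 1.30, 1.18 and 4.11 at P10 and of 4.64, 4.83 and 4.19 at P14. P10 replicate 3 was almost as high as the lowest P14 array, while replicates 1 and 2 were far below. The change was 2.35 (SE 0.596, adjusted p = 0.0221), or 5.11-fold, and 0.44 against P10 replicate 3 alone (adjusted p = 0.798). The call was lost without P10 replicate 1 (adjusted p = 0.121), P10 replicate 2 (0.124), P14 replicate 1 (0.0841) or P14 replicate 2 (0.0704), and without moderation of the variance (0.0582).

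Probe Z00031175-1 followed the same course, with 1.34, 0.79 and 3.60 at P10 and 4.19, 4.79 and 3.62 at P14, a change of 2.29 (SE 0.643, adjusted p = 0.0353). P10 replicate 3 and P14 replicate 3 were almost equal. The call was lost without each of the P10 replicates 1 and 2 and each of the P14 replicates (adjusted p of 0.0526 to 0.174), and also with an offset of 0, with the ratio that the scanner software computed, with the deposited table, without a filter and without moderation of the variance. In the wild type both probes were low on all 3 P10 arrays, at 2.52, 2.52 and 1.93 for Z00026161-1 and 2.41, 2.31 and 1.59 for Z00031175-1. Their P14 arrays in the wild type ran from 4.19 upwards. The wild-type change was 2.83 for Z00026161-1 (adjusted p = 0.00972) and 2.51 for Z00031175-1 (adjusted p = 0.0225).

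**Figure D2:**
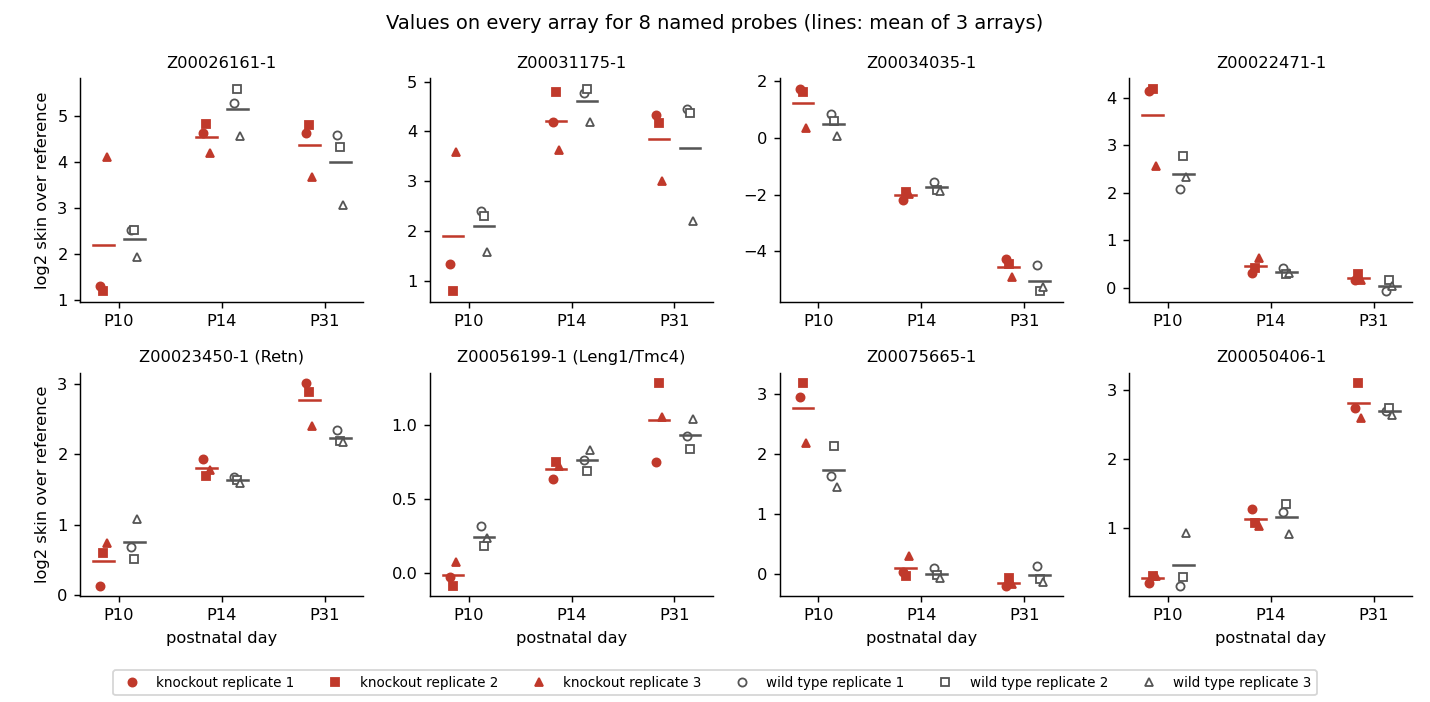
Log2 ratio of skin over reference on every array for 8 probes, by postnatal day, for knockout (filled red) and wild type (open grey), with the symbol giving the replicate and the line the mean of 3 arrays. In Z00026161-1 and Z00031175-1 knockout replicate 3 of P10 lies apart from the other P10 arrays of both genotypes, and in Z00034035-1, Z00022471-1 and Z00075665-1 it is the lowest knockout array of P10.

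Signals that appeared or disappeared were unequal in number. Well above background on all 3 P14 arrays and on none at P10 were 21 probes, and the reverse held for 379. These probes entered the tested set only through the age at which they were high, so their counts and values are a description and their p values are not given. They were not taken out of the tests. The counts of called probes in this report include 3 of the 21 and 34 of the 379, and these calls are not read as a result about them. For such probes no fold was taken from the ratios. In the skin channel alone, after loess and Aquantile, the mean of the brighter age was set against the lowest level called well above background on each array of the dimmer age. The median of these bounds was 1.41-fold for the 21 and 1.15-fold for the 379. A bound over 1.5-fold was found for 7 of the 21 and 27 of the 379. For 37 of the 379 the P10 mean lay under that lowest level, so that no fall was bounded. The lower brightness of the P14 arrays moves with this count, and its part was not tested.

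Probe Z00075665-1 had log2 ratios of 2.94, 3.19 and 2.18 at P10 and of 0.04, -0.03 and 0.30 at P14. Its P14 level in the skin channel was lower by a factor of at least 4.65. It was also above background on 3 of 3 wild-type arrays at P10 and on 0 of 3 at P14, and on 0 of 3 arrays of each genotype at P31. Probe Z00061922-1 went from 2.91, 2.84 and 1.71 to 0.06, -0.14 and 0.16, at least 3.89-fold lower in the skin channel.

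Of the probes seen at P14 only, Z00050406-1 had 0.20, 0.30 and 0.29 at P10 and 1.28, 1.07 and 1.03 at P14. It was at least 1.97-fold higher in the skin channel, and its knockout arrays of P31 stood at 2.75, 3.11 and 2.59. Z00041684-1 was at least 2.01-fold higher in the skin channel, and its ratios went from 0.22, 0.47 and 0.38 to 1.17, 1.31 and 1.75. It was not called, and its knockout arrays of P31 ranged from 1.50 to 3.98.

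Few probes could be tied to a gene. The first bases of 138 probes matched the transcribed start of exactly 1 gene in RefSeq (GRCm38.p6), on the same strand, over at least 30 bases, and 47 of these probes were tested. Their changes ran from -0.48 to 1.31 with a median of 0.12, and 34 of the 47 were above 0. Of all 24777 tested probes, 12407 had a higher mean at P14. Among the 47, 2 were called, both higher, which is 4.26% against 5.46% of all tested probes. This placing was added after the values were seen.

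Retn encodes resistin, a hormone that mouse fat cells secrete. Its probe Z00023450-1 matches bases 2 to 50 of the transcript, on chromosome 8 from 3655771 to 3655819 on the plus strand. The log2 ratios were 0.14, 0.60 and 0.74 at P10, and 1.94, 1.69 and 1.78 at P14. All P14 arrays lay above all P10 arrays, and 1 of 3 P10 arrays and 3 of 3 P14 arrays were well above background. The change was 1.31 (SE 0.177, adjusted p = 3.98e-04), with no fold given because most P10 arrays were not well above background, and with the skin signal alone higher by 3.08 and the reference signal by 1.45. The part of the reference signal in the ratio was not tested. At P31 the knockout arrays stood at 3.02, 2.89 and 2.40. In the wild type Retn rose by 0.88 (adjusted p = 0.00808), from 0.68, 0.52 and 1.08 to 1.67, 1.64 and 1.60. The difference between the changes was 0.43 (SE 0.250, unadjusted p = 0.104 in limma). Resistin is a marker of fat, the other fat markers were not analysed here, and the part of the share of fat in the skin samples was not tested. In such whole-tissue RNA, more cells of a type and more RNA per cell cannot be told apart.

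Probe Z00056199-1 lies on chromosome 7 from 3665794 to 3665853 on the minus strand, where the start of Leng1 and the span of Tmc4, which encodes a transmembrane channel-like protein, overlap. Its first base is at -13 from the annotated start of Leng1, and 47 of its 60 bases lie in the transcribed part of that gene. It covers the bases 41 to 100 from the annotated end of Tmc4, and its signal cannot be given to one of the 2 genes. The ratios were -0.03, -0.09 and 0.07 at P10 and 0.63, 0.75 and 0.72 at P14. The arrays of each age lay close together and the ages did not overlap, and the change was 0.71 (SE 0.118, adjusted p = 0.00187), or 1.64-fold. In the wild type it was 0.51 (adjusted p = 0.0142), or 1.43-fold.

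Mif encodes macrophage migration inhibitory factor, a cytokine that many cells store. Its probe Z00064281-1 went from -0.67, -0.45 and -0.66 to -0.05, -0.11 and -0.08, a change of 0.51 (adjusted p = 0.0144) that stayed under the fold limit at 1.43-fold. In the wild type it was 0.64 (adjusted p = 0.00561), or 1.56-fold. The other placed probes did not pass. Fau, whose product is cleaved into a ribosomal protein, had a change of 0.28 (adjusted p = 0.236). Taldo1, transaldolase of the pentose phosphate pathway, had 0.23 (adjusted p = 0.208), Snrpf, a core protein of the spliceosome, 0.34 (adjusted p = 0.285), and Ntng1, a netrin anchored in the membrane of neurons, -0.39 (adjusted p = 0.242). The Snrpf probe also overlaps the span of 4933408J17Rik, whose strand was not examined.

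Overlapping probes served as a repeat of the measurement on the same RNA. There were 627 pairs of tested probes that shared at least 30 bases in a row (median 44). Their changes differed by a median of 0.04 and by at most 0.78. In 35 pairs both probes were called, always in the same direction (14 higher, 21 lower), and in 12 pairs 1 was called, with the same sign in all 12. The 35 pairs held 62 of the 1158 probes that were in pairs. This count leaves out called probes that were only in pairs with 1 called, and it is not the called share of the paired probes. Of all tested probes, 5.46% were called. The pairs were examined after the values were seen. The pair with the largest mean rise, the pair with the largest mean fall and a pair described below for both genotypes are printed with the shared bases in capitals.
Z00030162-1: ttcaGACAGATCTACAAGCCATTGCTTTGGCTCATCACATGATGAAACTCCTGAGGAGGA
Z00075775-1: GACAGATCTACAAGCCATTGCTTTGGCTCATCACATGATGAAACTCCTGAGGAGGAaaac
Z00030824-1: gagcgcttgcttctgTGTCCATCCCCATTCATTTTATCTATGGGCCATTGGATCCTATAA
Z00059861-1: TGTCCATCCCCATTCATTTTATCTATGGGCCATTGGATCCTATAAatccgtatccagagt
Z00004889-1: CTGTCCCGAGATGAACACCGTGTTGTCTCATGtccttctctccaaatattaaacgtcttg
Z00075322-1: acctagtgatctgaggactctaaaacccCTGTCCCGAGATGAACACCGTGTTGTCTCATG

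Z00030162-1 had log2 ratios of -2.84, -3.23 and -2.21 at P10 and -0.77, -0.73 and -1.49 at P14, and Z00075775-1 had -2.89, -3.29 and -2.24 and then -0.79, -0.74 and -1.51. Both probes gave the same order of the arrays and almost the same values. The changes were 1.77 (SE 0.354, adjusted p = 0.00594) for Z00030162-1 and 1.79 (SE 0.354, adjusted p = 0.00557) for Z00075775-1. In the wild type neither passed, with changes of 1.08 each (adjusted p = 0.0531 and 0.0528). Z00030824-1 fell by 1.21 (SE 0.165, adjusted p = 4.3e-04) and Z00059861-1 by 1.34 (SE 0.158, adjusted p = 1.3e-04). The arrays of Z00059861-1 read 0.57, 0.51 and 0.16 at P10 and -0.94, -0.90 and -0.92 at P14.

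Many of the probes called in the knockout were also called in the wild type, and 0 were called in opposite directions. In the wild type 1854 probes were called between P10 and P14 (7.48%), 662 higher and 1192 lower; the knockout and wild-type comparisons share no array, but the wild-type P10 arrays were on slide 2 with knockout P10 replicate 3, and wild-type P14 replicate 1 was on slide 3 with the knockout P14 arrays. Of the 512 probes that rose in the knockout, 498 (97.3%) had a positive change in the wild type and 274 were called there, which is 53.5% of the knockout calls and 41.4% of the wild-type calls. Of the 842 that fell, 839 (99.6%) had a negative change and 488 were called, 58.0% and 40.9% of the calls. Of all tested probes with a higher knockout mean at P14, 82.3% had a positive change in the wild type, and of those with a lower mean 81.0% had a negative one. The median wild-type change was 0.63 for the 512 and -0.67 for the 842. The wild-type count also rested on single arrays and was 508 without P10 replicate 2, 520 without P14 replicate 3, 718 without P10 replicate 3 and 2798 without P10 replicate 1.

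Called in the knockout and not in the wild type were 592 probes. Of the 238 that rose, 62 had an adjusted p under 0.05 in the wild type by limma, and 224 had a positive wild-type change, with a median over the 238 of 0.45 against 0.69 in the knockout. Of the 354 that fell, 102 had an adjusted p under 0.05 there and 351 had a negative change, with a median over the 354 of -0.45 against -0.72. Of the probes called in the wild type and not in the knockout, the 388 that rose there had a median knockout change of 0.45, and the 704 that fell had one of -0.47.

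**Figure D3:**
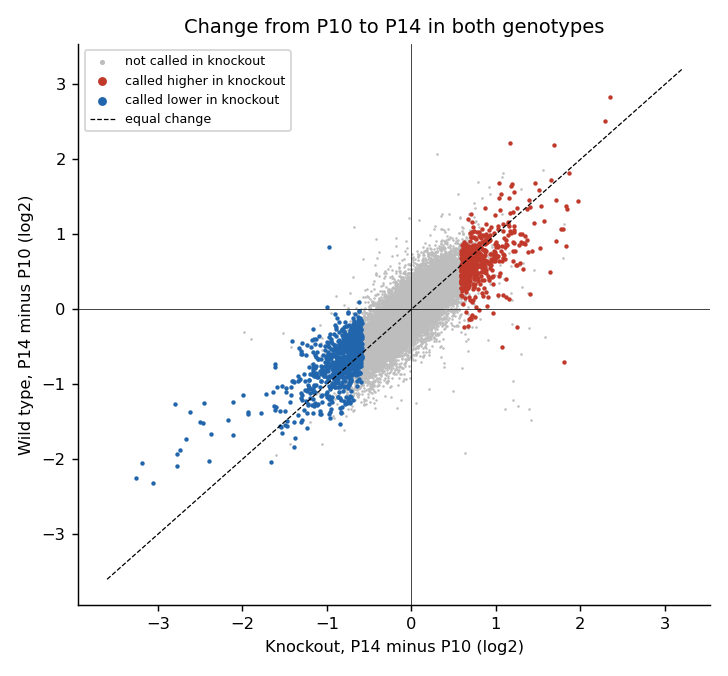
Change from P10 to P14 in knockout (horizontal axis) and wild-type skin (vertical axis), both log2, 1 point per tested probe, with the dashed line at equal change. Of the called probes, 498 of 512 red points have a positive and 839 of 842 blue points a negative wild-type change, and the 17 largest falls lie above the line.

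The difference between the changes of the genotypes was tested in the same fit. By limma 0 of 24777 probes passed (0%) at an adjusted p under 0.05, the smallest adjusted p was 1.00, and 619 probes (2.50%) had an unadjusted p under 0.05. Other settings gave 0 to 16 probes, the 16 with array quality weights. A p that misses the threshold does not show equal changes: the SE of this difference had a median of 0.22 on the log2 scale over all tested probes. The 1354 probes were chosen by their change in the knockout, and the change was larger there than in the wild type for 380 of the 512 (74.2%) and 622 of the 842 (73.9%), against 51.7% and 52.9% of all tested probes that were higher and lower at P14. The choice favours this direction, and it is a description.

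A few called probes moved in the knockout with little or opposite movement in the wild type. They are the called probe each way, and the overlapping pair of called probes, with the smallest unadjusted p of the difference between the changes. The choice was made after the values were seen and fixes small unadjusted p values. These p values are a description and not a test of the probes. Z00004889-1 rose in the knockout from 1.92, 1.95 and 2.04 to 3.04, 3.12 and 3.24, a change of 1.16 (SE 0.162, adjusted p = 5.2e-04). Its wild-type arrays read 2.23, 2.65 and 2.08 at P10, and 2.46, 2.49 and 2.41 at P14 (change 0.14, adjusted p = 0.576). The arrays of the wild type overlapped between the ages, and those of the knockout did not. The difference was 1.02 (SE 0.229, unadjusted p = 3.7e-04, adjusted p = 1.00). Its partner Z00075322-1 gave 1.12 and 0.16, a difference of 0.96 (SE 0.205, unadjusted p = 2.3e-04, adjusted p = 1.00). At P31 the wild type had reached 3.08, 3.15 and 3.22 for Z00004889-1, near the knockout arrays of 3.26, 3.65 and 2.88.

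Z00054539-1 rose in the knockout from -0.72, -0.52 and -0.59 to 0.22, 0.21 and 0.13 (change 0.80, SE 0.121, adjusted p = 9.96e-04), with a wild-type change of -0.01. Its difference of 0.81 had an unadjusted p of 2.2e-04 in limma (adjusted p = 1.00). Z00020232-1 fell in the knockout by 0.97 (adjusted p = 0.0397), and its wild-type mean rose by 0.83 without passing (adjusted p = 0.0588). Its knockout call was lost with the replicate block (adjusted p = 0.0510) and without P10 replicate 1 or 2 or P14 replicate 1 or 2 (adjusted p of 0.0897 to 0.179), and 1 of its 3 knockout arrays of P14 was well above background. It was one of 17 called probes with opposite signs in the genotypes, 2 of which exceeded 1.5-fold in the wild type.

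Of the 3 P10 arrays, replicate 3 most often lay nearest to P14 in the called probes, although in most of them it lay closer to the other P10 arrays than to P14. It was the P10 array closest to the P14 mean for 359 of the 512 higher (70.1%) and 685 of the 842 lower probes (81.4%), against 35.0% and 49.3% of all tested probes that were higher and lower at P14. It lay nearer to the P14 mean than to the mean of replicates 1 and 2 for 36 of the 512 and 75 of the 842. The median change of the called probes was 0.80 and -0.84 from replicates 1 and 2 and 0.65 and -0.66 from replicate 3. All 1354 kept their sign when measured from replicate 3, and 339 of the 512 and 538 of the 842 still exceeded 1.5-fold. Relative to the wild-type P10 arrays, replicates 1 and 2 lay at a median of -0.31 and 0.31 in the higher and lower probes, and replicate 3 at -0.15 and 0.10. With replicate 3 as the only P10 array the fit called 30 probes, 4 higher and 26 lower, and the P10 group then had 1 array whose spread was taken from the other groups. Measured from replicate 3 alone, the change was -2.39 for Z00034035-1, -2.11 for Z00022471-1 and -2.45 for Z00039540-1. With replicates 1 and 2 as the P10 arrays the fit called 1386.

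**Figure D4:**
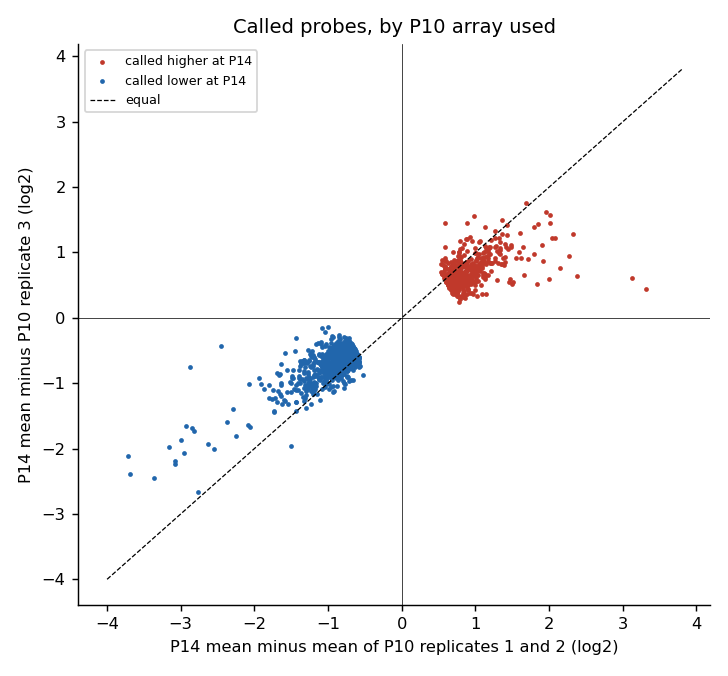
P14 mean minus P10 replicate 3 (vertical axis) against P14 mean minus the mean of P10 replicates 1 and 2 (horizontal axis), both log2, for the 512 probes called higher (red) and 842 called lower (blue). All points keep their sign on both axes, most lie nearer to 0 on the vertical axis, and the 2 red points at the right are the largest rises, Z00026161-1 and Z00031175-1.

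The Cy5 channel held the same reference RNA on all arrays, so a difference there between the P14 and P10 arrays is not a change of the skin. In that channel alone 58 of 24777 probes were called (0.234%), 8 higher and 50 lower, and 29 of the 1354 were among them. The median absolute difference was 0.10 in Cy5 and 0.30 in Cy3 over all tested probes, and 0.12 in Cy5 and 0.96 in Cy3 over the called ones.

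The course to P31 ran on in the same direction for most called probes. The knockout mean at P31 lay on the same side of the P10 mean as at P14 for 507 of the 512 (99.0%) and 836 of the 842 (99.3%), against 85.5% and 75.8% of all tested probes that were higher and lower at P14. It lay beyond the P14 mean for 416 (81.3%) and 678 (80.5%), against 66.1% and 50%. These counts use the same P10 and P14 arrays as the calls and are given as a description.

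The base composition of the called probes is given as a description. The probes that fell had a median GC content of 41.7% (quartiles 36.7% and 45%), and those that rose had 45% (40% and 51.7%), the median of all tested probes. Of the 8327 tested probes with a GC content of 40% or less, 4.41% fell and 1.66% rose, and of the 3652 with over 50% to 55%, 1.94% fell and 3.04% rose. The median change went from -0.07 in the first of these classes to 0.08 in the second and 0.11 in the 2388 probes above 55%. The wild type gave -0.07, 0.11 and 0.17, the skin signal alone gave -0.10, 0.14 and 0.15, and the reference signal gave 0.01, 0.04 and -0.01. The part of base composition in the calls was not tested. The letters AATAAA stood in 11.7% of the probes that rose and 6.29% of those that fell, against 7.82% of all tested probes, and on the opposite strand in 3.13%, 3.68% and 3.22%. The called share was lowest in the dimmest probes: in 4 equal classes from dimmest to brightest the called share was 2.78%, 6.25%, 6.93% and 5.91%.

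**Figure D5:**
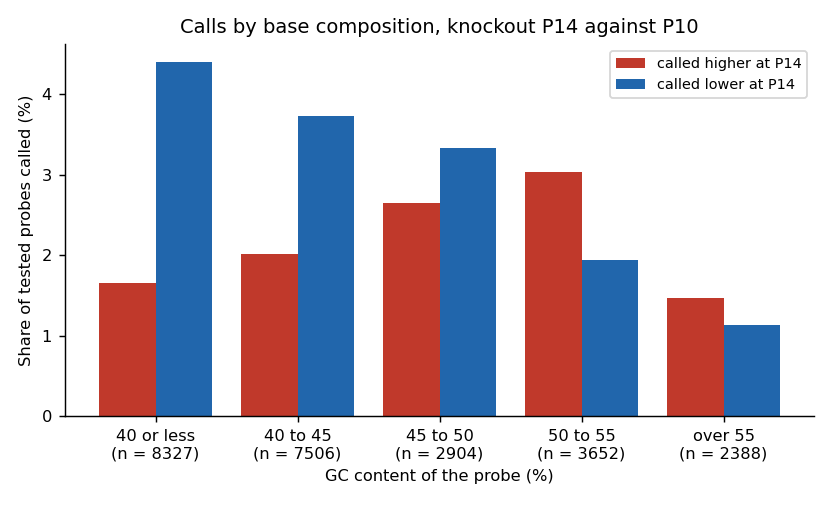
Share of tested probes called higher (red) and lower (blue) at P14 in knockout skin, in %, by the GC content of the 60-base probe, with the number of probes per class. Falls reach 4.41% in the class of 40% or less and 1.13% above 55%, and rises are most frequent at 50% to 55%.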

How the data were processed

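Per the file headers, each deposited scanner file was made with Agilent Feature Extraction 9.5.1.1. It holds spot brightness, local background and processed signals of both dyes as intensity, a log10 ratio of reference over skin, and other values, which are per-spot marks of outliers, saturation and detection. A table of 25030 probes deposited by the authors is on a log10 scale and holds the ratio of skin over reference plus an unstated constant per probe (column medians 2.42 to 2.48).

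Brightness was background-corrected with normexp (offset 50) and normalized by loess within each array (limma 3.58.1, R 4.3.3). Ratios were taken as skin over reference in log2, outlier spots were set to missing (6 tested probes lacked at least 1 of the 6 arrays), and 42034 spots were averaged to 42006 probes. The 6 group means were fitted over 18 arrays (12 residual degrees of freedom) with lmFit and eBayes, with Benjamini-Hochberg adjustment over all tested probes, and the limits of adjusted p 0.05 and fold 1.5 come from the design text. P values are two-sided, and an exact permutation of 3 against 3 arrays cannot go below 0.1. The script was tested on simulated data. Same-numbered replicates are different animals and were not paired.

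With no gene names, the naming rule fell back on identifiers, namely at most 2 probes each way by size of change and by bound in the skin channel after loess and Aquantile; the gene lists and cell type markers were not analysed here. The members and lists were chosen with earlier results of these data known. Alternatives covered background, normalization, filters, moderation, weights, slide, the replicate block, single arrays, the deposited log10 table and the channels alone.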

Additional observations from a re-analysis of the deposited data

How the results depend on the processing

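The count of 1354 knockout probes stayed within 1.5 times under 18 of 24 alternatives. It was 2067 with array quality weights, 2330 without the fold limit, 30 with P10 replicate 3 as the only P10 array, and 600 to 1386 when each array was left out in turn. The replicate block gave 1389; the replicate numbers did not mark pairs, with correlations of same-numbered deviations of 0.02, -0.07 and -0.33. For the wild type, 1854 became 2936 with the ratio that the scanner software computed, 3003 with array quality weights and 508 to 2798 with each array left out; with the skin channel alone it split into 945 higher and 1101 lower. For the difference between genotypes, 0 became 16 with array quality weights, 1 with the deposited table, 1 with a filter on 3 of 18 arrays and 0 to 1 with each array left out; the cause was not tested. No named probe changed sign under any alternative run. Slide as a random block gave 1411 (correlation -0.02), and as a fixed block it could be fitted for the difference between genotypes but not for age. Signal near background and 3 arrays a group limit the precision.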
